A study of Mus musculus with 2 samples.

Results

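The cells described here were 91 of the 1427 wildtype microglial cells (6.38%, exact 95% interval 5.17% to 7.77%) in a single-cell study of mouse microglia after systemic inflammation, and 91 of 1747 cells over both of its libraries. They were picked by measured counts: a wildtype cell was a member when it held at least 2 unique molecular identifiers (UMIs, each tagging a captured mRNA molecule) in total over 9 genes of DNA replication and cell division, named rule genes below, namely Lig1, Hells, Gmnn, Chaf1a, Top2a, Cenpe, Ncapg2, Mki67 and Stmn1. Microglia are the resident macrophages of the brain. They were sorted as living CD11b+CD45int cells from brains taken 24 h after an intraperitoneal injection of bacterial lipopolysaccharide (LPS, 4 µg per g body weight) and run on Drop-seq, which captures the 3' ends of mRNA from single cells in droplets. The wildtype library pooled 1 female and 1 male mouse, PARK7/DJ-1 wildtype littermates of 3 to 4 months. The other library pooled 1 female and 1 male PARK7/DJ-1 KO mouse of the same ages and treatment, from a gene-trap line backcrossed to C57BL/6NCrl. With 1 library per genotype no test between samples was possible. The intervals given here therefore cover counting alone, of UMIs for levels and ratios and of cells for shares. They leave out the variation between animals and, for levels and ratios, also the variation between cells.

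The wildtype table held 3063795 UMIs over 9999 barcodes. The 1427 barcodes with at least 500 UMIs and 100 genes had a median of 1065 UMIs and 693 genes, and the 320 KO cells a median of 963.5 UMIs. Park7 itself had 323 UMIs in wildtype cells (162 CPM, that is UMIs per 1000000, 145 to 181) and 1 UMI in KO cells (2.62 CPM). The libraries shared 11 of their barcodes and none that passed as cells. No library of unstimulated microglia was analysed here.

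Cells copy their DNA in S phase. Before it, the origin recognition complex loads the MCM helicase on replication origins (licensing), and once the kinase Cdc7 with Dbf4 has fired an origin, polymerases, the sliding clamp PCNA and its loader RFC work at the fork. Many of these genes are switched on together by E2F transcription factors, which are released from the retinoblastoma protein and its relatives late in G1, whereas genes of G2 and mitosis are often driven through a later promoter element, the cell cycle gene homology region (CHR). Microglia of the adult brain renew themselves by slow local division, and LPS turns them towards cytokine, chemokine and interferon-induced transcripts.

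Some of the promoters of the chosen and of the highest genes hold letters of these elements, and the stretches that hold them are printed before the values. E2F-type matches were the letters TTTCCCGC, TTTCGCGC, TTTGCCGC or TTTGGCGC, and CHR-type matches were TTTGAA or TTCGAA, on either strand. RefSeq promoters (GRCm38.p6, 250 bases before to 50 after each start site) were matched by gene symbol. Lig1 has 3 promoters listed and Stmn1 and Gmnn have none. Shown are the 150 bases just before the start site, 5' to 3' on the gene's own strand with matches in capitals, for each rule gene and each of the 15 highest genes with a match in that stretch. They are Hells (chr19:38930840-38930989, plus strand), Mcm6 (chr1:128359706-128359855, minus strand), Rfc3 (chr5:151651209-151651358, minus strand) and Cdca7 (chr2:72476069-72476218, plus strand) with E2F-type letters, and Top2a (chr11:99024190-99024339, minus strand), Mki67 (chr7:135716380-135716529, minus strand) and Ncapg2 (chr12:116405286-116405435, plus strand) with CHR-type letters.
Hells: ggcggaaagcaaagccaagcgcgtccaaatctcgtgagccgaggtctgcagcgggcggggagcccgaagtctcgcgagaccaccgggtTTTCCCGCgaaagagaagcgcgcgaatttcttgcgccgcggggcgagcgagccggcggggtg
Mcm6: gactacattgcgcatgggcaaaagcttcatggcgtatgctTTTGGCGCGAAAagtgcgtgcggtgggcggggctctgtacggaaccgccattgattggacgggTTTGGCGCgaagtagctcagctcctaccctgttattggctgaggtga
Rfc3: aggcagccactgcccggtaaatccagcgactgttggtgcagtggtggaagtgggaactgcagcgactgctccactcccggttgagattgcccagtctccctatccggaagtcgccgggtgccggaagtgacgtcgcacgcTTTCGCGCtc
Cdca7: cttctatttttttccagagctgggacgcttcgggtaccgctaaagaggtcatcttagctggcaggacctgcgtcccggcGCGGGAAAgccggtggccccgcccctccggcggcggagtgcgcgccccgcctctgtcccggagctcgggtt
Top2a: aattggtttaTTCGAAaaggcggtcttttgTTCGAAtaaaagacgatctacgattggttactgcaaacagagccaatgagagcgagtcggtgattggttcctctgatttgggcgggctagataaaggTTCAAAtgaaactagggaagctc
Mki67: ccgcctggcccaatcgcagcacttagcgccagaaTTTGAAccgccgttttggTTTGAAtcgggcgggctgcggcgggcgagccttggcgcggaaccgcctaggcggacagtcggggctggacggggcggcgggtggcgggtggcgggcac
Ncapg2: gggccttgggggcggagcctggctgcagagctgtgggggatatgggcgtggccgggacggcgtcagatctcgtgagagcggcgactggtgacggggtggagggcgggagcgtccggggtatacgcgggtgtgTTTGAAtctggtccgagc
The match in Hells began at position -62 from the start site, those in Mcm6 at -110, -106 and -47 with the first pair overlapping, that in Rfc3 at -10 and that in Cdca7 at -71. Top2a carried its CHR-type letters at -140, -120 and -23, Mki67 at -116 and -98, and Ncapg2 at -18. Most of the highest genes had neither: of the 12 with a promoter listed, 4 held E2F-type and 2 CHR-type letters anywhere in the whole window, against 3 and 3 of the 7 rule genes with one. Ncapg2 held 2 E2F-type matches outside the printed stretch and is counted in both. Rfc3 is also counted in both: its whole window held 2 E2F-type matches, of which 1 is printed, and 1 CHR-type match outside the printed stretch. Such short letters also occur by chance, so the shares over whole sets give the scale. E2F-type letters were in 2.26% of all 32851 promoters and in at least 1 promoter of 5.03% of the genes with enough UMIs to be compared. They were in 9 of the 20 licensing genes with a promoter listed, in 7 of 25 fork genes and in 7 of 18 regulators of the G1 to S step, and also in 7 of 30 repair genes, 3 of 18 chromatin assembly genes and 3 of 15 ribosome biogenesis genes. They were in 2 of 41 genes of G2 and mitosis, in none of 11 genes of nucleotide supply and in none of 30 inflammatory genes. CHR-type letters were in 19.2% of all promoters and in 30 of 41 genes of G2 and mitosis. The matches are letters in these windows and not measured binding.

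The rule genes were unevenly spread over the members, and since they chose the cells their values are a description only. Lig1, which seals nicks between newly made DNA fragments (chromosome 7, 13277175 to 13311426), gave 94 of the 314 rule-gene UMIs and was found in 53 of the 91 members. Hells, a chromatin remodeller that sustains DNA methylation (chromosome 19, 38930262 to 38970470), gave 73 UMIs in 40 members, and 21 members held both Lig1 and Hells. Geminin (Gmnn, chromosome 13, 24751845 to 24761937), which stops origins from being licensed again, gave 29 UMIs in 20 members. Chaf1a, the large subunit of the histone chaperone that loads nucleosomes behind the fork (chromosome 17, 56040416 to 56068026), gave 28 UMIs in 19 members. Together these genes of S phase made up most of the signal that picked the cells.

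The genes of chromosome segregation were sparser. Top2a, which untangles DNA (chromosome 11, 98992947 to 99024199), gave 26 UMIs in 12 members, the kinetochore motor Cenpe (chromosome 3, 135212563 to 135273540) 23 UMIs in 13 members and the condensin subunit Ncapg2 (chromosome 12, 116405351 to 116463532) 17 UMIs in 14 members. The tubulin-binding protein stathmin (Stmn1, chromosome 4, 134468320 to 134473843) gave 12 UMIs in 11 members. Mki67, the gene of the proliferation marker Ki-67 (chromosome 7, 135689784 to 135716450), gave 12 UMIs in only 3 members, with 6 of them in the member that had the most rule-gene UMIs. By RefSeq, the end of Chaf1a overlaps Ubxn6 and the start of Lig1 overlaps Zswim9, so the counts of these genes are uncertain if strand was not used in counting.

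**Figure D1:**
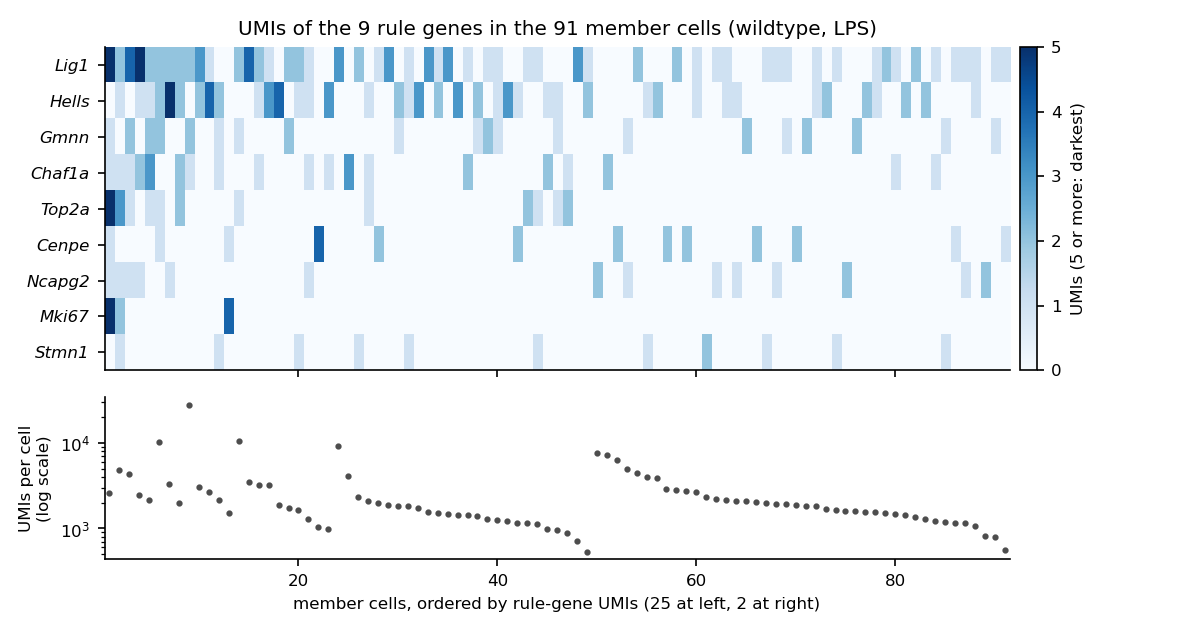
Top: UMIs of each of the 9 rule genes (rows) in each of the 91 members (columns, ordered by their rule-gene sum, from 25 at the left to 2 at the right), darker for more UMIs. Bottom: all UMIs of the same cells on a log scale, 535 to 27757. Lig1 and Hells fill the upper rows along the whole order, whereas Mki67 is dark in 3 cells only.

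Most members passed the rule narrowly. Of them 42 held 2 rule-gene UMIs, 26 held 3, 10 held 4 and 5 held 5, while 3 cells held 8, 3 held 9, 1 held 11 and 1 held 25. Just outside the rule stood 162 cells with 1 rule-gene UMI, most often Hells (42 cells), Lig1 (39) or Gmnn (29), and 1174 cells held none. The 8 members with at least 8 rule-gene UMIs carried 27.7% of the rule-gene UMIs of all members. Only 1 rule gene was seen in 34 members and at least 2 different ones in 57.

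The member with 25 rule-gene UMIs had 10 of Top2a, 6 of Mki67, 5 of Lig1 and 1 each of Chaf1a, Ncapg2, Gmnn and Cenpe among its 2597 UMIs. It also held 2 UMIs of Cdk1, the kinase that drives entry into mitosis, and none of the acute-phase gene Saa3. The next member, with 11 rule-gene UMIs over 7 rule genes, held 62 UMIs of Saa3 among 4789 UMIs. So the cells richest in rule-gene UMIs differed among themselves in the inflammatory transcript.

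Depth moved with membership, and free RNA also held rule-gene UMIs. Members had a median of 1815 UMIs, cells with 1 rule-gene UMI 1378.5 and cells with none 991.5. Of the wildtype cells with 500 to 999 UMIs 1.37% were members, against 8.43% of those with 1000 to 1999 and 15.7% of those with 2000 or more. When every cell was thinned to 500 UMIs, 20 cells (1.40%, 0.858% to 2.16%) still had 2 rule-gene UMIs. In the 4270 barcodes with at most 100 UMIs, taken to hold mostly RNA free in the suspension, the rule genes stood at 257 CPM (204 to 319), level with 239 CPM (218 to 262) over all wildtype cells. A droplet of 500 UMIs of that free RNA would reach 2 rule-gene UMIs in 0.756% of cases and 1 in 12.04%, the latter above the 8.27% of thinned cells with at least 1. A cell with 1 rule-gene UMI therefore cannot be told from background by that count. These shares of free RNA hold at 500 UMIs, and a deeper droplet would reach 2 rule-gene UMIs more often. The share was not computed at the depth of the members (median 1815 UMIs). A sum of 2 at those depths was therefore not set against background. The 9 genes did not keep the same proportions: Hells made up 23.2% of the rule-gene UMIs of members and 8.64% of those in low-UMI barcodes, Chaf1a 8.92% and 2.47%, but Top2a 8.28% and 21.0% and Mki67 3.82% and 11.1%. The part of free RNA in the membership of any given cell was not tested.

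To bring the comparison closer in depth, each member was paired with the 5 cells without rule-gene UMIs nearest to it in UMIs, giving 455 matched cells (median 1657 UMIs, against 1815). Members stayed the deeper group, also without the deepest member (medians 1812.5 and 1659.5). Levels are CPM of summed UMIs, with the rule genes left out of the totals, and ratios are members over matched cells. Of the 7063 genes that reached 20 UMIs in members and matched cells together, 903 (12.8%) were at least 1.5-fold higher in members and 738 (10.4%) at least 1.5-fold lower. These shares are the background for the counts below, since a gene of few UMIs passes 1.5-fold by counting error alone. The median log2 ratio of all 7063 genes was 0.05.

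Microglial markers were as high in members as in matched cells and above free RNA. The 7 genes P2ry12, Tmem119, Cx3cr1, Csf1r, C1qa, Siglech and Fcrls together stood at 12172 CPM (11738 to 12619) in members and 12448 (12215 to 12684) in matched cells, against 8583 (8263 to 8912) in low-UMI barcodes. At least 3 of them were detected in 88 of 91 members and in 428 of 455 matched cells, but droplets of free RNA of the same depths would give 86.5 and 431 such cells, so detection alone does not tell these cells from background.

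Genes of origin licensing and of the replicative helicase were about 1.9-fold higher in members, although none of them was in the rule. The 24 genes together stood at 1176 CPM (1044 to 1321) in members and 605 CPM (555 to 659) in matched cells, a ratio of 1.94 (1.68 to 2.25). Of the 13 with at least 20 UMIs, 9 were at least 1.5-fold higher, none was lower by that much, and all 13 had a ratio over 1. Low-UMI barcodes stood at 589 CPM, near the matched cells.

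The MCM helicase subunits were among the clearest. Mcm6 (chromosome 1, 128331575 to 128359705) had 21 UMIs in 15 of 91 members and 20 UMIs in 19 of 455 matched cells, 86.4 against 22.9 CPM and a ratio of 3.77 (1.95 to 7.34). Mcm7 had a ratio of 2.62 (1.41 to 4.73), Mcm4 2.36 (0.985 to 5.27) and Mcm3 2.20 (1.35 to 3.48). Dbf4, the activating subunit of the origin-firing kinase, stood at 2.80 (1.09 to 6.83), Gins1 of the active helicase at 1.82 (0.942 to 3.31) and Wdhd1, which links helicase and polymerase, at 2.19 (0.962 to 4.64). The origin recognition complex was less uniform: Orc6 had a ratio of 2.07 (0.946 to 4.18), while Orc3, Orc4 and Orc5 lay between 1.20 and 1.29 with intervals that include 1. Orc1 and Ticrr had no UMI in any member.

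The fork genes showed the same size of difference. Together the 31 genes were at 1761 CPM (1598 to 1935) in members and 936 CPM (872 to 1002) in matched cells, a ratio of 1.88 (1.67 to 2.12). Of 20 genes with at least 20 UMIs, 13 were at least 1.5-fold higher and none lower by that much. Among those 20 genes, Timeless and Tipin, which form the complex that steadies stalled forks, had the largest ratios with Rfc3 of the clamp loader. Timeless was at 3.99 (2.01 to 8.01), with 20 UMIs in 16 members and 18 in 11 matched cells, Rfc3 at 3.60 (1.73 to 7.49) and Tipin at 3.19 (1.73 to 5.80). Pole, with 7 UMIs in members and 1 in matched cells, and Clspn, with 6 and 2, had too few UMIs to be compared.

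The polymerase and clamp genes followed with smaller ratios. Pola1, the catalytic subunit of the priming polymerase, was at 2.76 (1.58 to 4.72), but at 0.817 among cells with Xist and no Y-linked UMI. The single-strand binding protein subunits Rpa2 and Rpa1 were at 2.98 (1.35 to 6.38) and 2.53 (0.939 to 6.30), whereas Rpa3, their partner, was at 1.13 (0.305 to 2.99). Pole3 was at 2.49 (1.37 to 4.39) and Rnaseh2b, a subunit of the enzyme that removes ribonucleotides from DNA, at 2.33 (1.15 to 4.48), while Rnaseh2c was at 0.774 (0.298 to 1.60). Pcna, the clamp itself, had 32 UMIs in 26 members and 75 in 68 matched cells, a ratio of 1.55 whose interval of 0.981 to 2.35 includes 1. Rfc1, with 12 of its 63 member UMIs in a single cell, was at 1.86 (1.35 to 2.54). It was at 0.860 (0.317 to 1.72) when each cell was thinned to 490 UMIs.

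Cell by cell, the 55 licensing and fork genes overlapped widely between members and matched cells. Members held 0 to 53 of their UMIs with a median of 6, and matched cells 0 to 18 with a median of 2. As a level, the lower and upper quartiles were 1786 and 4627 CPM in members (median 2759) and 710.5 and 2114 in matched cells (median 1388). These transcripts were absent in 4 of 91 members and 60 of 455 matched cells, counts that the remaining gap in depth touches. After thinning to 490 UMIs, at least 1 such UMI was seen in 70.3% of members (59.8% to 79.5%), 59.9% of cells with 1 rule-gene UMI and 50.7% of cells with none, while a droplet of free RNA of that depth would give 51.8%. Before thinning the shares were 95.6%, 85.2% and 73.4%.

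**Figure D2:**
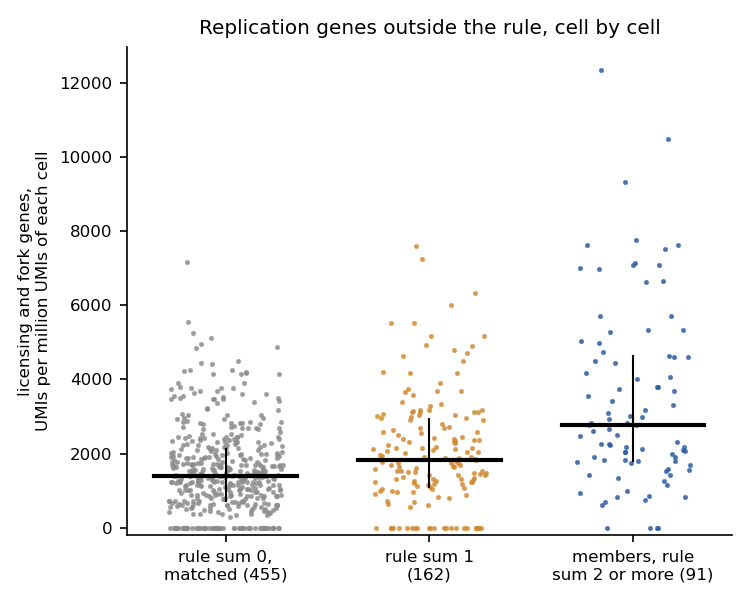
Level of the 55 licensing and fork genes together (CPM, vertical axis) in each of the 455 matched cells, the 162 cells with 1 rule-gene UMI and the 91 members. Thick bars are medians (1388, 1838 and 2759 CPM) and thin bars run from the lower to the upper quartile; the clouds overlap and the members reach highest, to 12353 CPM.

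The difference grew with the number of rule-gene UMIs, over classes that were not matched in depth. Licensing genes were at 603 CPM in cells with 0 rule-gene UMIs, 809 with 1, 914 with 2, 1357 with 3 or 4 and 1352 with 5 or more. Fork genes were at 923, 1286, 1544, 1989 and 1818 CPM in the same order. Between the last pair of classes the intervals overlap for both lists. Members with at least 2 different rule genes were at 1318 CPM for licensing genes (1142 to 1513) and those with only 1 rule gene at 939 (750 to 1161), still above the 605 of matched cells.

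**Figure D3:**
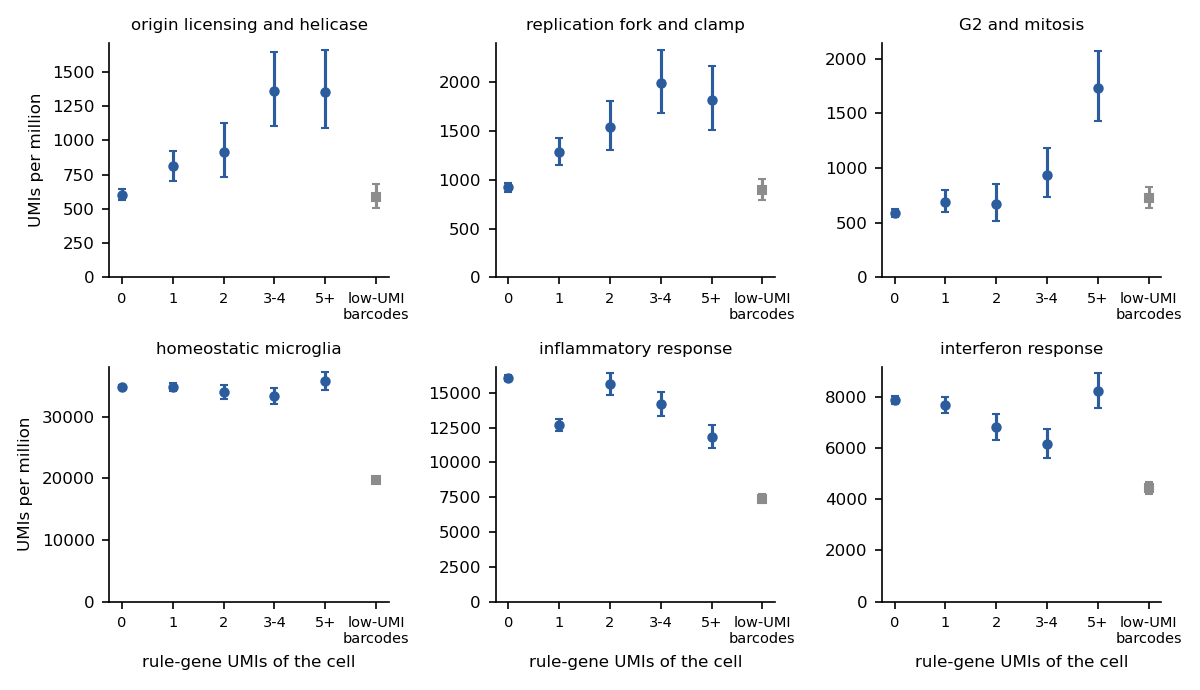
Summed level of 6 gene lists (CPM with exact 95% intervals) in wildtype cells with 0, 1, 2, 3 to 4 and 5 or more rule-gene UMIs (circles) and in barcodes of at most 100 UMIs (squares). Licensing and fork genes climb from 603 and 923 CPM with the rule-gene count, G2 and mitosis genes are highest in the class with 5 or more (1730 CPM), and the homeostatic genes stay between 33321 and 35770 CPM in cells.

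Genes of G2 and mitosis were higher as well, and partly through a few cells. The 48 genes stood at 1053 CPM (928 to 1190) in members and 604 CPM (553 to 658) in matched cells, a ratio of 1.74 (1.496 to 2.03), which was 1.37 without the 3 members with the most rule-gene UMIs. Low-UMI barcodes stood at 725 CPM for these genes. Of the 10 genes with at least 20 UMIs, 6 were at least 1.5-fold higher and 1 lower. Tacc3, a spindle protein, was at 3.60 (1.68 to 7.68) with 16 UMIs in 11 members. The condensin subunits Smc2 and Smc4 were at 1.78 (1.11 to 2.76) and 1.54 (0.788 to 2.78). Smc2 was at 0.794 (0.218 to 2.00) among cells with a Y-linked UMI and no Xist. Securin (Pttg1) was at 1.72 (0.848 to 3.20) and Incenp, of the chromosomal passenger complex, at 1.70 (1.05 to 2.64). The cyclin kinase partner Cks1b was the member of the list that was lower, with 4 UMIs in members and a ratio of 0.635 (0.146 to 1.67). It was at 2.22 (0.203 to 8.02) when each cell was thinned to 490 UMIs. Most genes of the list had too few UMIs to be compared. Cdk1 had 7 UMIs in members and 1 in matched cells, and Casc5, of the kinetochore, 6 and 1, whereas the checkpoint kinase gene Bub1 had none in members and 5 in matched cells, and the mitotic cyclin gene Ccnb1 none and 1.

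The kind of rule gene also divided the members, by a division made after the values were seen. In the 48 members with rule-gene UMIs of replication genes alone, G2 and mitosis genes were at 715 CPM (576 to 877), with licensing genes at 1034 (865 to 1225). In the 32 members with both kinds they were at 1673 (1408 to 1975) and 1638 (1375 to 1936), both far above the 604 and 605 of matched cells. In the 11 members with mitotic or other rule genes alone, licensing genes were at 520 CPM (297 to 844), no higher than in matched cells, and fork genes at 1300 (929 to 1770). By these lists, which the rule did not use, licensing genes were above the matched cells in both classes with replication rule genes, to which the name S-phase-like applies. The 32 with both kinds were as high in G2 and mitosis genes as in licensing genes, but this rested on 2 cells. Without the 2 with the most rule-gene UMIs, left out after the values were seen, G2 and mitosis genes were at 1088 CPM (866 to 1348) and licensing genes at 1625 (1352 to 1937). In the other 11 the licensing genes, on 16 UMIs, were not above the matched cells.

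Regulators of the G1 to S step were 1.33-fold higher as a list (1.18 to 1.504), with 5 of 14 genes at least 1.5-fold higher and none lower by that much. Cdca7, an E2F and Myc target that partners with Hells, was at 2.78 (1.66 to 4.57), with 30 UMIs in 22 members and 39 in 27 matched cells. Rbl1, which encodes the retinoblastoma relative p107, was at 2.26 (1.02 to 4.66), but at 0.696 (0.0112 to 3.54) among cells with Xist and no Y-linked UMI. Ccnd3 was at 1.63 (0.828 to 2.95), whereas Ccnd1, the best-covered cyclin with 77 member UMIs, was at 1.09 (0.831 to 1.41), Cdk4 at 1.42 (0.775 to 2.41) and the cell cycle inhibitor Cdkn1b at 0.679 (0.334 to 1.20).

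Genes of nucleotide supply were at a ratio of 1.48 (1.19 to 1.83), with 5 of 8 genes at least 1.5-fold higher and none lower by that much. Thymidylate synthase (Tyms) was at 2.20 (0.833 to 5.26), the ribonucleotide reductase subunit Rrm1 at 2.04 (0.824 to 4.57) and the CTP synthase Ctps at 2.02 (0.856 to 4.33), each on 11 or fewer member UMIs. Chromatin assembly genes were at 1.23 (1.11 to 1.36), with 5 of 15 higher: the histone acetyltransferase Hat1 at 2.30 (1.21 to 4.18) and the histone chaperone Nasp at 1.69 (1.13 to 2.45) had intervals above 1, while Dnmt1, the maintenance methyltransferase, was at 1.56 (0.914 to 2.53). The well-covered chromatin proteins Hmgb1 and Anp32b, at 1.20 and 1.20, had intervals that include 1.

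Genes of DNA damage response and repair were at 1.37 (1.25 to 1.49), with 9 of 25 genes at least 1.5-fold higher and 2 lower. The higher ones were of several kinds. The stress-induced gene Gadd45g was at 2.85 (1.16 to 6.70), the recombination mediator Brca2 at 2.55 (1.33 to 4.72), Mre11a of the double-strand break sensor at 2.38 (1.20 to 4.50) and the helicase Blm at 2.19 (0.962 to 4.64). The cohesin subunit Smc3 was at 1.83 (1.40 to 2.37) on 91 UMIs in 42 members. The checkpoint kinase Atr was at 1.83 (0.875 to 3.53), but at 0.882 (0.0799 to 3.30) among cells with Xist and no Y-linked UMI. The end-joining protein Xrcc6 was at 1.65 (0.769 to 3.20) and the base excision enzyme Apex1 at 1.59 (1.08 to 2.28). The lower ones were Mdm2, which marks p53 for degradation, at 0.574 (0.239 to 1.11) and the damage-binding protein Ddb1 at 0.514 (0.167 to 1.13). Ddb1 was at 4.58 (1.22 to 12.4) when each cell was thinned to 490 UMIs. Cytoskeletal and nuclear transport genes were at 1.28 (1.20 to 1.38), with 4 of 15 genes higher, 1 lower, and the tubulin gene Tubb5 at 1.504 (1.25 to 1.80) on 167 UMIs in 64 members.

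**Figure D4:**
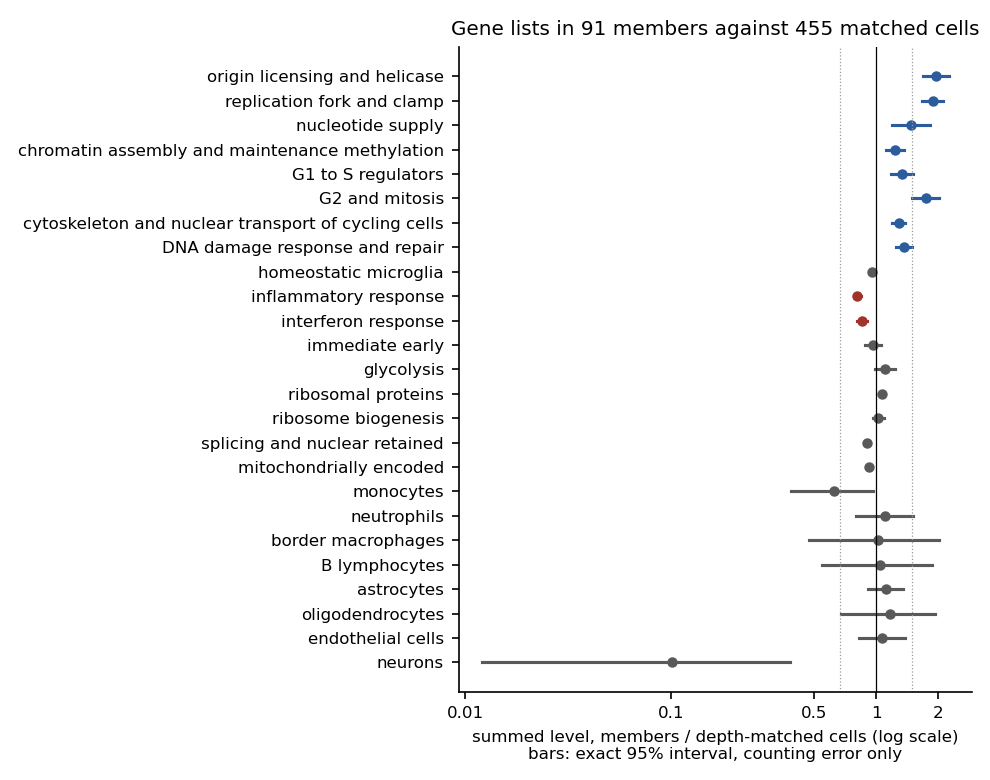
Ratio of the summed level in 91 members to that in 455 matched cells (log axis) for 25 of the gene lists, with exact 95% intervals for counting error. The 8 lists of cell cycle and repair (blue) lie between 1.23 and 1.94, the inflammatory and interferon lists (red) at 0.809 and 0.852, and dotted lines mark 1.5-fold either way.

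Ranked over all 7063 genes by the lower bound of the ratio, the 15 highest genes again held replication genes (Mcm6, Timeless, Tipin, Rfc3 and Cdca7, given above, with Tacc3). Among the others, Atad5, which unloads PCNA from finished DNA (chromosome 11, 80089379 to 80135797), had 35 UMIs in 26 members and 36 in 31 matched cells, a ratio of 3.50 (2.13 to 5.73). Atad2, a chromatin ATPase and E2F target (chromosome 15, 58094044 to 58135525), had 42 UMIs in 26 members and 49 in 32 matched cells, a ratio of 3.09 (1.99 to 4.75). Palb2, the partner of Brca2 (chromosome 7, 122107262 to 122132980), was at 4.17 (1.80 to 9.93). The chromatin reader Psip1 was at 3.44 (1.80 to 6.54), the nuclear pore gene Nup205 at 3.84 (1.73 to 8.62), Memo1 at 4.46 (1.96 to 10.5) and the zinc finger gene Zfp553 at 3.26 (1.65 to 6.36). Without the 2 members and 2 matched cells with the most of their UMIs, these genes stayed between 2.98 and 4.28.

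Of the 15, 2 rested on single cells. The long noncoding RNA Gm17251 had all 28 of its member UMIs in 1 cell. Its ratio of 18.6 was 0.514 (0 to 8.70) without the 2 highest cells of each group. With no member UMI left, that value depends on the 0.5 counts added to each group. Adh5, an alcohol dehydrogenase that detoxifies formaldehyde, had 59 of its 71 member UMIs in 2 cells and went from 2.81 to 0.825 (0.389 to 1.51).

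**Figure D5:**
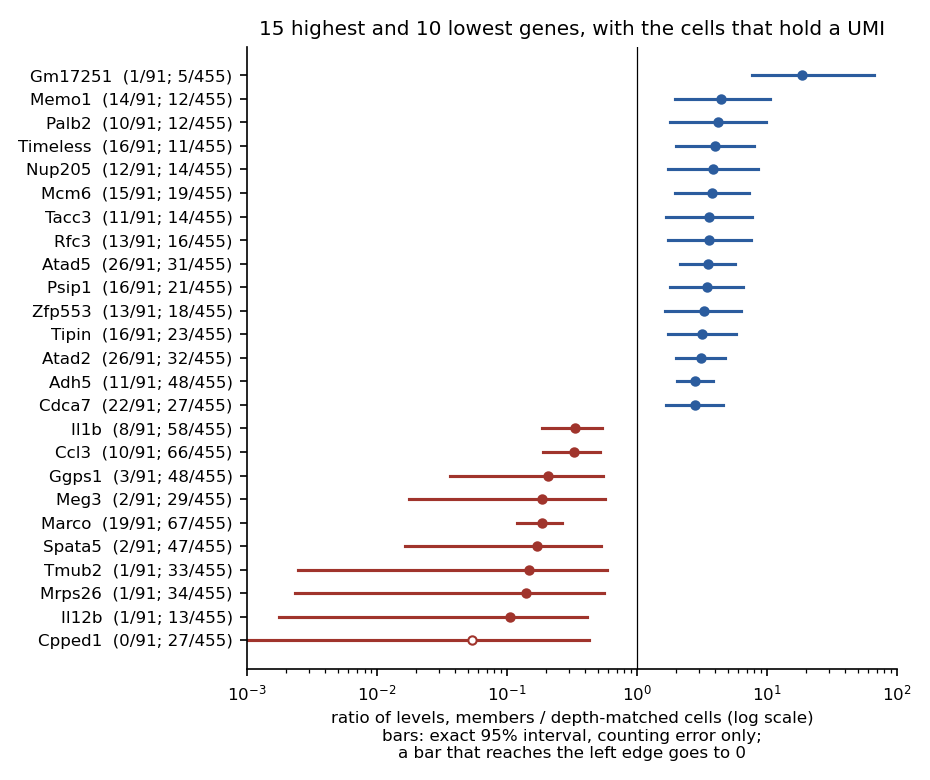
Ratio of members to matched cells (log axis) with exact 95% intervals for the 15 genes with the highest lower bound (blue) and the 10 with the lowest upper bound (red), with the number of members and matched cells that held a UMI in brackets. Gm17251 lies farthest right at 18.6 on the UMIs of 1 member, and Cpped1 (open circle) has no member UMI, so its position depends on the 0.5 counts added to each group.

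Inflammatory transcripts were lower in members. The 36 listed genes with values stood at 14088 CPM (13620 to 14568) in members and 17411 (17135 to 17690) in matched cells, a ratio of 0.809 (0.779 to 0.840). Of 32 genes with at least 20 UMIs, 11 were at least 1.5-fold lower and none higher by that much, beside 10.4% of all genes that were lower. Ccl3, a chemokine, had 19 UMIs in 10 members and 212 in 66 matched cells, a ratio of 0.330 (0.190 to 0.516), and Il1b, the cytokine interleukin 1 beta, 17 UMIs in 8 members and 187 in 58 matched cells, 0.336 (0.186 to 0.538). Cxcl10 was at 0.333 (0.149 to 0.607), Ccl4 at 0.524 (0.313 to 0.806), the LPS-induced receptor Gpr84 at 0.577 (0.474 to 0.694) and the decoy receptor Il1r2 at 0.586 (0.419 to 0.791).

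Some of the lower genes had many of their matched UMIs in few cells. Without the 2 highest cells of each group, a check chosen after seeing the data, the 11 lower genes of the list lay between 0.0765 (Ch25h) and 0.515 (Ccl5), each with an interval below 1. Leaving out 2 of 91 members takes a larger share than 2 of 455 matched cells, which tends to lower the ratios. The check therefore cannot show whether a lower value rests on few cells. Ch25h lost all 4 of its member UMIs, so its 0.0765 depends on the 0.5 counts added to each group. The scavenger receptor Marco had the lowest ratio of the list, 0.184 (0.119 to 0.265), although it was found in 19 of 91 members and 67 of 455 matched cells. A single matched cell held 70 of its UMIs and no member more than 3, and without those cells its ratio was 0.193 (0.117 to 0.290). In the same way Ccl3 was at 0.279 (0.118 to 0.520), with 10 of 19 member UMIs and 90 of 212 matched UMIs left out. Il1b was at 0.207 (0.0830 to 0.396), with 9 of 17 and 40 of 187 left out. Saa3, the acute-phase serum amyloid gene that was the largest of the list, was level at 0.982 (0.919 to 1.05), with UMIs in 42 of 91 members and 227 of 455 matched cells, as were the NF-kB inhibitor Nfkbia at 0.927 (0.808 to 1.06) and the LPS co-receptor Cd14 at 0.970 (0.792 to 1.17). Cell by cell the median inflammatory level was 10132 CPM in members and 11798 in matched cells. After thinning, 70.3% of members (59.8% to 79.5%) and 73.9% of cells without rule-gene UMIs had at least 3 inflammatory UMIs (94.5% and 89.1% before thinning), while a droplet of free RNA of that depth would give 70.1%. This share did not separate the groups, whereas the thinned ratio of the summed list was 0.884 (0.812 to 0.961). By rule-gene count the list had no order, at 16064 CPM with 0, 12677 with 1, 15593 with 2, 14190 with 3 or 4 and 11822 with 5 or more.

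The remaining genes of the lowest 10 had few or no UMIs in members. Il12b, a subunit of interleukin 12 that was in no list, had 1 UMI in members and 51 in matched cells, 20 of them in 1 cell, and its ratio of 0.105 was 0.133 with an interval up to 1.18 without the 2 highest cells of each group. The neuronal noncoding RNA Meg3 had 2 UMIs in members and 48 in matched cells. Spata5, Ggps1, Mrps26 and Tmub2 had 1 to 3 UMIs in members against 36 to 60 in matched cells, and Cpped1 had none against 33. Mrps26 was at 0.140 with matching but 1.17 (0.0192 to 5.19) when all cells were thinned. These genes were taken as extremes of 7063, and Meg3 alone of these 7 was in a list.

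Interferon-induced genes were slightly lower, at a ratio of 0.852 (0.808 to 0.898), with 7 of 30 genes at least 1.5-fold lower and 1 higher. The immunoproteasome subunit Psmb9 was at 0.380 (0.125 to 0.815) and Ifit2 at 0.414 (0.136 to 0.893), whereas Bst2 was at 1.08 (0.836 to 1.37) and Gbp7 at 1.05 (0.857 to 1.27). Among cells with a Y-linked UMI and no Xist the list stood at 1.03. Homeostatic microglial genes summed to a ratio of 0.950 (0.927 to 0.973), which the abundant Cst3 decided (0.869, 0.838 to 0.900), and to 1.01 among cells with Xist and no Y-linked UMI. The median gene of that list was higher, at a log2 ratio of 0.19, and none of its 18 genes passed 1.5-fold: the purinergic receptor gene P2ry12 was at 1.43 (1.16 to 1.75), Mertk at 1.41 (1.19 to 1.67) and Gpr34 at 1.45 (1.07 to 1.95).

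Most other lists were near 1. Glycolysis genes were at 1.10, ribosomal proteins at 1.06, ribosome biogenesis at 1.02, immediate early genes at 0.965, mitochondrially encoded transcripts at 0.920 (1.01 without the 5% of cells with the most UMIs), and splicing and nuclear retained transcripts at 0.897. Park7 was at 0.885 (0.598 to 1.26), with 38 UMIs in members.

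Most markers of other cell types were low. The 5 of 14 T or NK lymphocyte genes in the table had no member UMI and 2 in matched cells, erythroid and choroid plexus genes 1 each, and the neuronal genes 2 UMIs in members against 71 in matched cells. Among the markers at 0 in members were Ccr2 and Ly6c2 for monocytes, Camp, Ngp and Ltf for neutrophils, Pf4 and Cd163 for border macrophages, Cd79a for B cells, Gfap and Aqp4 for astrocytes, Mog for oligodendrocytes and Cldn5 for endothelium. Other genes of these lists were present: Csf3r of the neutrophil list had 49 UMIs in 32 members and a ratio of 1.22 (0.855 to 1.68), Glul of the astrocyte list 102 in 46 and 1.19 (0.937 to 1.48), Mag of the oligodendrocyte list 13 in 11 and 1.41 (0.666 to 2.67), and Bsg of the endothelial list 75 in 40 and 1.17 (0.888 to 1.52). Slc1a3 of the astrocyte list had 30 in 24 and 1.00 (0.638 to 1.49). Ighm of the B lymphocyte list had 10 in 6 and 0.932 (0.401 to 1.83). Fn1 of the monocyte list had 6 in 6 and 0.792 (0.253 to 1.82), and F13a1 of the border macrophage list 4 in 3 and 0.790 (0.179 to 2.15). B lymphocyte genes stood at 61.7 CPM in members, 59.5 in matched cells and 15.8 in low-UMI barcodes. Monocyte genes were at 0.621 (0.385 to 0.963), and the neutrophil, border macrophage, B lymphocyte, astrocyte, oligodendrocyte and endothelial lists between 1.01 and 1.16 with intervals that include 1.

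The library pooled a female and a male mouse, and free RNA carried the transcripts of both. Xist, the RNA of the inactive X, stood at 1048 CPM in low-UMI barcodes (938 to 1168), 440 in members (360 to 531) and 730 in matched cells (674 to 789), and Y-linked genes at 203 (156 to 259), 238 (181 to 308) and 176 (149 to 206). Y-linked UMIs without Xist were in 20 members, where droplets of free RNA of the same depths would give 3.69, and Xist without Y-linked UMIs in 32, where they would give 47.0. Y-linked UMIs alone were thus in 22.0% of members and 15.2% of matched cells (69 cells), and Xist alone in 35.2% and 45.7% (208 cells). Cells were not matched by mouse, so ratios over all cells can include a difference between the 2 animals. Both kinds together were in 8 of 91 members (8.79%, 3.87% to 16.6%) and 37 of 455 matched cells (8.13%, 5.79% to 11.03%), fewer than the 28.7 and 120 that free RNA alone would give, so these counts do not show how many droplets held more than 1 cell. The deepest member, at 27757 UMIs the deepest wildtype cell and above the deepest matched cell at 10932, held both kinds and 11.4% of all member UMIs. Without the 5% of cells with the most UMIs, the ratios of licensing, fork and G2 and mitosis genes were 2.46, 2.30 and 2.17.

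In the KO library the same rule found 6 of 320 cells (1.88%, 0.691% to 4.04%), and 1 after thinning to 500 UMIs (0.313%, 0.00791% to 1.73%, against 1.40% in wildtype). Over all KO cells the rule genes stood at 260 CPM (211 to 316), against 239 over all wildtype cells. With 1 library each, and lower depth and fewer rule-gene UMIs in low-UMI barcodes in KO (90.6 CPM), the genotypes cannot be told apart from the libraries. Of the KO cells, 2 held 44 and 25 rule-gene UMIs, with 18 and 10 of Mki67 and 8 and 12 of Cenpe, and the other 4 held 2 each. Lig1 had 15 UMIs in KO cells, Hells 3, and Gmnn and Chaf1a none (Chaf1a carried no values in the KO table). For the lists, the 6 KO members were set against all 292 KO cells without rule-gene UMIs. These were not matched in depth (medians of 2297 and 937.5 UMIs). G2 and mitosis genes stood at 9109 CPM in the 6 KO members (7588 to 10846) and 536 in KO cells without rule-gene UMIs. How much of this came from the 2 cells with 44 and 25 rule-gene UMIs was not tested. Licensing genes stood at 578 (250 to 1140) and 382 (319 to 455), a ratio of 1.51 (0.639 to 3.07). Chromatin assembly genes were at a ratio of 2.29 (1.60 to 3.20) and regulators of the G1 to S step at 1.79 (1.12 to 2.74) in KO members, and fork genes at 1.23 (0.625 to 2.18). Inflammatory genes were at 0.392 (0.143 to 0.861) on 6 UMIs in KO members, and homeostatic genes at 1.10 (1.03 to 1.17).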

How the data were processed

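The authors deposited raw UMI counts per gene and barcode for each of the 2 libraries, not filtered to cells. The submitters' processing notes name bcl2fastq 2.0, STAR and the builds mm9 and mm10 without a role, and the counting program, its use of strand and the annotation are not given in the sources used here. Genes listed for 1 library only carry missing values in the other, read as 0. Cells were barcodes with at least 500 UMIs and 100 genes. Doublets were left in and no caller was run. Members and gene lists (28 beside the rule genes) were chosen with earlier results of these data known.

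Each member was matched, deepest first and without replacement, to the 5 unused cells without rule-gene UMIs nearest in log UMIs. Rule genes were left out of totals and readout. Levels (CPM) have exact Poisson intervals, shares exact Clopper-Pearson intervals, and ratios (0.5 counts added per group for single genes, none for lists) exact conditional binomial intervals, all at 95%. PCR duplicates are collapsed by UMI. No interval includes variation between mice, and those of levels and ratios do not include variation between cells. The method was checked on counts simulated with counting error alone. That check does not cover UMIs clumped in single cells. Genes with at least 20 UMIs were compared, and 1.5-fold either way was called. Named genes were the rule genes, every called cell cycle or repair gene, the extreme genes of the other lists, Park7, and the 15 highest and 10 lowest genes by interval bound. For the long lists only some are printed, and a few genes are not reported here. Gene positions and promoters are from RefSeq (GRCm38.p6) by symbol. Alternatives were other matching, thinning, thresholds, left-out cells and cells with Xist or with Y-linked UMIs alone. The analysis used Python 3.11.15, numpy 2.4.6 and scipy 1.17.1, and figures matplotlib 3.10.9.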

Additional observations from a re-analysis of the deposited data

Results flagged for a closer look

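A signal lay in barcodes that no comparison of cells uses. In the wildtype barcodes with at most 100 UMIs the 9 rule genes stood at 257 CPM (81 of 315748 UMIs), against 239 CPM in wildtype cells and 90.6 CPM in the same kind of KO barcodes. Its part in the membership of single cells was not tested.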

How the results depend on the processing

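The share of members depended most on depth and on the rule: 1.40% with each cell thinned to 500 UMIs, 3.43% at a rule sum of at least 3, 3.99% with at least 2 different rule genes, 10.6% over cells with at least 1000 UMIs and 10.3% among cells with a Y-linked UMI and no Xist (6.38% as reported). Genes called higher and lower numbered 903 and 738, 291 and 274 at 50 UMIs or more, 3165 and 1893 with no filter, and 244 and 286 at 2-fold.

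Ratios of lists moved beyond their counting interval in these settings. As the mean of single-cell levels, licensing was 2.30, fork 2.15, homeostatic 0.924, inflammatory 0.763 and interferon 0.805. At a rule sum of at least 3, licensing was 2.47, fork 2.15, G2 and mitosis 2.28 and inflammatory 0.704. With at least 2 different rule genes they were 2.33, 2.19, 2.19 and 0.656, and without the 5% of cells with the most UMIs 2.46, 2.30, 2.17 and 0.698, with interferon at 0.777. Without the 3 members with the most rule-gene UMIs, G2 and mitosis was 1.37 and inflammatory 0.774. Among cells with Xist and no Y-linked UMI, licensing was 1.56, fork 1.45 and homeostatic 1.01, a reversal. Among cells with a Y-linked UMI and no Xist, licensing was 2.32, G2 and mitosis 1.36, homeostatic 0.917, inflammatory 0.686 and interferon 1.03, a reversal. Without matching on depth, homeostatic was 0.983 and inflammatory 0.877, and thinned to 490 UMIs 0.991 and 0.884. Inflammatory was 0.754 with 2 matched cells per member and 0.846 without the deepest member, a setting chosen after seeing the data. The cause of these shifts was not tested.

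Direction also turned for single genes and 1 list. Where an interval was computed, it included 1 in each case below, except for Ddb1 when thinned (1.22 to 12.4). Thinned to 490 UMIs, Adh5 was 0.944, Rfc1 0.860, Orc2 0.503, Cks1b 2.22, Ddb1 4.58, Marcksl1 1.63 and Mrps26 1.17. Without the 5% of cells with the most UMIs, Adh5 was 0.795, Usp37 0.936, Ddb1 1.09 and mitochondrially encoded transcripts 1.01. By single-cell means Ddb1 was 1.22. Among cells with Xist and no Y-linked UMI, Pola1 was 0.817, Rbl1 0.696, Atr 0.882, Oas1a 0.630 and Usp1 0.940. Among cells with a Y-linked UMI and no Xist, Klf4 was 0.749, Smc2 0.794 and Usp1 0.733. Of the other values for single genes and lists, 1316 stayed within their counting interval and 118 moved beyond it in the same direction. Most single genes rest on fewer than 100 UMIs.

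No paired analysis was possible because each genotype has 1 library and no replicates to leave out.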
